A study of Homo sapiens with 15 samples.

Results

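The genes described here are 7 transcription factors known for driving the epithelial-mesenchymal transition (EMT), SNAI1, SNAI2, TWIST1, TWIST2, ZEB1, ZEB2 and PRRX1. Every probe set whose only annotated gene symbol was 1 of these names was taken, which gave 17 of the 54675 probe sets in the table and 7 of the 19775 genes they name singly. Expression was measured on Affymetrix arrays in IMR32, an established human neuroblastoma line, and all cells on all 15 arrays carried an MSX1 gene that doxycycline can switch on. Each of 5 groups held 3 arrays: t = 0; doxycycline-induced cells taken at t = 8, at t = 24 or at t = 48; and a control taken at t = 48 that had received no doxycycline. The labels state no unit of time. Doxycycline without an MSX1 gene was not measured, and no control was taken at t = 8 or t = 24, so an effect of doxycycline cannot be told apart from one of MSX1, and time in culture cannot be told apart from induction at those times. Nothing states that replicates came from separate cultures or that several clones of the transfected line were used, so a p-value here weighs a difference only against the spread of these samples, which could be technical.

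EMT is the loss of cell junctions and polarity by which epithelial cells become migratory, and neural crest cells, the embryonic source of neuroblastoma, leave the neural tube in this way. The Snail proteins (SNAI1 and SNAI2) and the ZEB proteins are zinc-finger factors that repress epithelial genes such as CDH1, which encodes E-cadherin, through E-boxes of the form CAGGTG. TWIST1 and TWIST2 are basic helix-loop-helix proteins that bind E-boxes as dimers with E proteins, and PRRX1 is a paired-type homeodomain protein of mesenchymal tissue that also marks the mesenchymal state of neuroblastoma lines. MSX1 is a homeodomain protein known to bind TAATTG.

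Sequence upstream of the genes is shown here so that these 2 motifs can be seen where they occur, in windows of 300 bases that run from 250 bases before to 50 after a start site. The windows are from RefSeq on GRCh38.p14. Windows of TWIST2, ZEB1, ZEB2 and PRRX1 were used, 10 in all, since ZEB1 has 7 start sites. Both strands were searched, as CAGGTG or CACCTG and as TAATTG or CAATTA, and the 2 motifs share no stretch in these windows. CAGGTG was found in 2 of the 10 windows, both of ZEB1, and TAATTG in 1, that of ZEB2. Of all 35116 windows in the table, 20.6% held CAGGTG and 7.38% held TAATTG. The ZEB1 window with the most E-boxes (chr10:31318966-31319265, plus strand) and the ZEB2 window with the homeodomain motif (chr2:144520070-144520369, minus strand) are given, because these are the members with a match. For comparison stand a window of OCLN (chr5:69492540-69492839, plus strand), a tight-junction gene of the kind that Snail and ZEB proteins repress, and that of FAM43A (chr3:194685633-194685932, plus strand), the gene whose signals followed SNAI2 most closely. The windows of RHOB and CEMIP, which followed SNAI2 next, and of SAMD11, ID3 and ID1, which followed SNAI1, held neither motif and are not printed. JUP and GRHL1, epithelial genes described further on, were also searched and are not printed. The GRHL1 window and the first JUP window held neither motif, and the second JUP window held 2 matches of CAGGTG. Capitals mark each match on either strand, and each sequence is read 5′ to 3′ on the strand of its gene.
ZEB1: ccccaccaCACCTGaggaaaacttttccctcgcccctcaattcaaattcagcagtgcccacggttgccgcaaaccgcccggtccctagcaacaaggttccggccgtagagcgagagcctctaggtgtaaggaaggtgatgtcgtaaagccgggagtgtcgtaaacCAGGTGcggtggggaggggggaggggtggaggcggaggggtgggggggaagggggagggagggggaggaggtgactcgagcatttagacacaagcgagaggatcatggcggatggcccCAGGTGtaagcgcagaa
ZEB2: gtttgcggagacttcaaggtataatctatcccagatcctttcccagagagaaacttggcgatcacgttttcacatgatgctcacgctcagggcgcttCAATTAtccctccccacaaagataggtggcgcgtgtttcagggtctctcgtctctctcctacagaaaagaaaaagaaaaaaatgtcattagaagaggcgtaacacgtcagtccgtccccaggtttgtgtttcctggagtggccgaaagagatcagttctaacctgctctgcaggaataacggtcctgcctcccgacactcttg
OCLN: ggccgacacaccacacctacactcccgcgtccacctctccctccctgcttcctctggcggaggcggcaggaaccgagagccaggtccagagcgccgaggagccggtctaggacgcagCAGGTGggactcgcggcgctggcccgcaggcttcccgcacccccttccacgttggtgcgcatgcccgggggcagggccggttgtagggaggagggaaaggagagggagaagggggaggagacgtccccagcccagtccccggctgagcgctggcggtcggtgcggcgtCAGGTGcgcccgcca
FAM43A: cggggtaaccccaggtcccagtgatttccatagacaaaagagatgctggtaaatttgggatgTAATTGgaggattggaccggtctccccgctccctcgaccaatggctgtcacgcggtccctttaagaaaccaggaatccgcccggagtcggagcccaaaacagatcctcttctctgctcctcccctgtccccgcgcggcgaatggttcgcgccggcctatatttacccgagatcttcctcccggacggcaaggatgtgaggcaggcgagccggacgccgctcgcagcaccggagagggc
The ZEB1 window holds 3 E-boxes, at 242 and 85 bases before the start and 34 after it. In the ZEB2 window the single homeodomain match lies 153 bases before the start, and in the FAM43A window 188 before it. A match describes these letters and is not a binding site shown by the arrays.

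Of the 17 probe sets, 9 reached the median of their array on at least 3 of the 15 arrays and were tested. These were the single probe sets of SNAI1, SNAI2 and TWIST1, all 4 of ZEB1 and 2 of the 5 of ZEB2, whereas none of the 2 of TWIST2 or the 3 of PRRX1 passed. Signals are MAS5 intensities on a linear scale, and array medians lay between 18.1 and 22.6. Log2 differences are of the signal plus an offset of 5.16, which understates changes of dim probe sets. A difference passed where the limma test gave a Benjamini-Hochberg adjusted p under 0.05 over all 30676 probe sets tested. Over the 5 groups together, SNAI1 and SNAI2 passed the moderated F-test of limma, 2 of the 9 probe sets, against 12.2% of all probe sets.

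SNAI2 encodes Slug, which drives the delamination of neural crest cells in chick embryos and represses CDH1. Its fitted level was 2.23-fold higher at t = 8 and 2.21-fold higher at t = 24 than at t = 0. At t = 48 the induced level was 1.8 times that of the control. The signals of its probe set 213139_at were 466.8, 516.1 and 428.7 at t = 0. They were 1161.6, 960.4 and 1049.5 in induced cells at t = 8, and 1074.6, 1004.7 and 1053.6 at t = 24. At t = 48 the induced arrays read 389.2, 359.9 and 444.2, and the control arrays 265, 207.8 and 186.3. All 6 arrays of induced cells at t = 8 and t = 24 thus read above every other array, and the 3 control arrays read below every other array.

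The group means of SNAI2 were 471 ± 43.8 for t = 0, 1057 ± 101 for induced t = 8, 1044 ± 35.9 for induced t = 24, 398 ± 42.8 for induced t = 48 and 220 ± 40.7 for control t = 48 (SD, n = 3 each). SNAI2 was higher in induced than in control cells at t = 48, with a log2 difference of 0.85 (SE 0.13, 95% interval 0.56 to 1.14, limma adjusted p = 0.00267). It was the only 1 of the 9 probe sets to pass in this comparison, in which 5.13% of all probe sets passed. Against t = 0, SNAI2 was higher at t = 8 (1.16, limma adjusted p = 0.000977) and at t = 24 (1.15, 0.000254), again as the only 1 of the 9, where 1.11% and 6.08% of all probe sets passed. In control cells SNAI2 was lower at t = 48 than at t = 0 (-1.09, limma adjusted p = 0.00525), the only 1 of 9 beside 0.326% of all probe sets. Its difference between induced cells at t = 48 and t = 0 was -0.24 (95% interval -0.53 to 0.05, limma adjusted p = 0.26), and those groups overlapped.

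Within the induced course the difference of SNAI2 at t = 24 against t = 8 was -0.01 (95% interval -0.30 to 0.27, limma adjusted p = 0.969), and SNAI2 then fell by 1.39 on the log2 scale at t = 48 against t = 24 (limma adjusted p = 0.000118). When only the arrays of the compared groups were fitted, 3 of these calls were lost. The adjusted p was then 0.0501 against control at t = 48 (range over all alternatives 0.000146 to 0.0501), 0.0613 at t = 8 against t = 0 (1.85e-05 to 0.0613) and 0.221 for control cells against t = 0 (0.000155 to 0.221). Leaving out any 1 array kept each of the 5 differences of SNAI2 past the threshold. The 18S rRNA control, which differed between the same groups, read 150.2 to 172.9 in induced cells and 76.7 to 94.9 in control cells at t = 48, and its part in the differences at t = 48 was not tested. At t = 0 it read 86.2, 148.5 and 646.5, so replicate 3 stood apart. Without that array SNAI2 gave 1.09 at t = 8, 1.08 at t = 24 and -1.16 in control cells against t = 0, all of which passed.

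SNAI1 encodes Snail, the founding E-cadherin repressor of the family, whose protein is short-lived and is degraded after phosphorylation by GSK3B. No early difference of SNAI1 passed the test, and its lowest signals were those of induced cells at t = 48. The signals of probe set 219480_at were 100.1, 100.3 and 97.7 at t = 0, then 135.6, 101.5 and 80.7 at t = 8 and 101.9, 109 and 139.4 at t = 24 in induced cells. At t = 48 the induced arrays read 40, 45 and 44, and the control arrays 77.3, 51.1 and 69.2. The 3 induced arrays at t = 48 lay below all 12 others, and the control arrays at t = 48 lay below all arrays of t = 0, t = 8 and t = 24.

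SNAI1 was lower in induced cells at t = 48 than at t = 0, with means of 43 ± 2.65 and 99.4 ± 1.45 (SD, n = 3 each), and it fell by 1.12 on the log2 scale (SE 0.18, limma adjusted p = 0.00222). It was the only 1 of the 9 probe sets that passed there, where 11.4% of all probe sets did. Against t = 24, with a mean of 117 ± 19.9, SNAI1 fell by 1.33 at t = 48 (limma adjusted p = 0.0016). With SNAI2 this made 2 of 9 probe sets lower between these times, beside 2.25% of all probe sets. Control cells at t = 48 had a mean of 65.9 ± 13.4, and the difference of induced from control cells was -0.54 (95% interval -0.94 to -0.15), which did not pass (limma adjusted p = 0.109, range over alternatives 0.0687 to 0.313), although the groups did not overlap. Control cells gave -0.58 against t = 0 (95% interval -0.97 to -0.18, limma adjusted p = 0.313), also without overlap. At t = 8 the difference from t = 0 was 0.06 (95% interval -0.33 to 0.45) and at t = 24 it was 0.21 (95% interval -0.18 to 0.60).

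**Figure D1:**
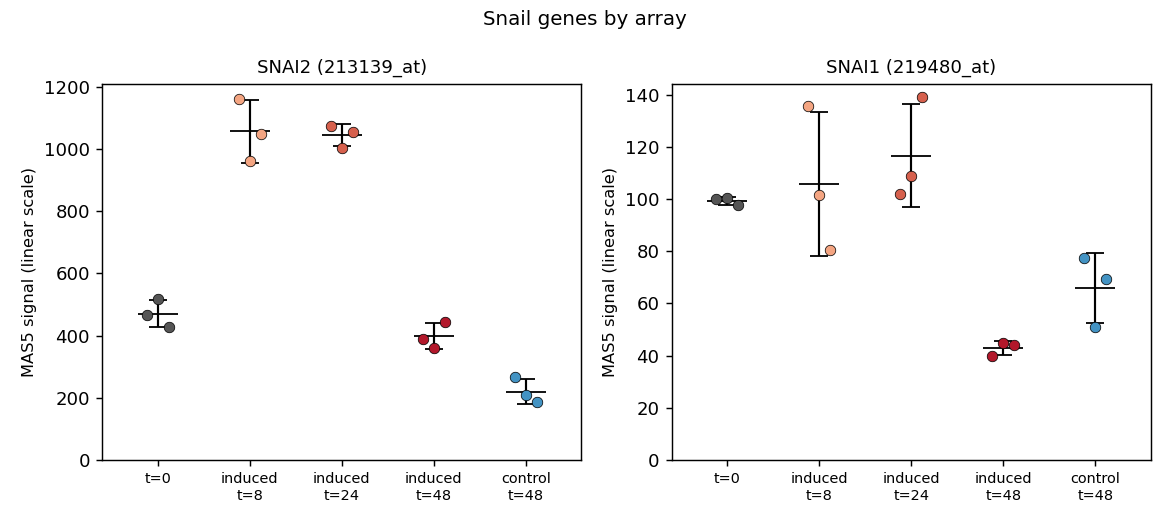
Signals of the SNAI2 and SNAI1 probe sets on each of the 15 arrays (y axes, MAS5 intensity on a linear scale from 0), by group along the x axes. Points are arrays, and the horizontal and vertical bars are the mean and SD of 3 arrays; SNAI2 stands above 960 on all 6 arrays at t = 8 and t = 24, and SNAI1 is at or below 45 on all 3 induced arrays at t = 48.

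The opposite signs of the 2 Snail genes at t = 48 against control concern values of which only that of SNAI2 passed. Signals of different probe sets are not comparable in level, so which Snail gene was more abundant was not asked. Over all 15 arrays the log2 signals of SNAI1 and SNAI2 had a Pearson correlation of 0.66. These points share the 5 groups and the scaling of each array.

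TWIST1, which keeps cranial neural crest cells in a mesenchymal state in mouse embryos, was measured by a single probe set, 213943_at. Its signals were 888.2, 718.9 and 956.5 at t = 0, then 714.2, 856.2 and 1053.3 at t = 8 and 1025.4, 916.9 and 994.3 at t = 24 in induced cells. At t = 48 the induced arrays read 970.3, 1196.1 and 1334.4, and the control arrays 920, 1059.9 and 1192.7. Only the induced arrays at t = 48 lay wholly above those of t = 0, and they overlapped the control arrays. The difference between induced cells at t = 48 and t = 0 was 0.45 (95% interval 0.09 to 0.80, limma adjusted p = 0.101), and that between induced and control cells at t = 48 was 0.14 (95% interval -0.22 to 0.50, limma adjusted p = 0.685). With an intensity trend and robust variances in limma, the first of these reached an adjusted p of 0.0452. Control cells at t = 48 differed from t = 0 by 0.31 (95% interval -0.05 to 0.67, limma adjusted p = 0.653).

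TWIST2, a relative of TWIST1 with roles in dermis and bone, stayed dim on all arrays. Its probe sets read between 0.6 and 11.6 (229404_at) and between 0.4 and 8.1 (1554163_at), and on 0 of 15 arrays did either reach the array median. No difference is drawn from these values.

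ZEB1, a repressor of CDH1 that is itself held down by the miR-200 microRNAs in epithelial cells, was read by 4 probe sets, and none passed in any of the 7 comparisons. On the brightest, 212764_at, the means were 1269 ± 22.8 for t = 0, 1294 ± 40.3 for induced t = 8, 1293 ± 85.4 for induced t = 24, 1341 ± 70.4 for induced t = 48 and 1324 ± 46 for control t = 48 (SD, n = 3 each). The 15 arrays lay between 1194.5 and 1405.9, and every pair of groups compared overlapped. The log2 difference between induced and control cells at t = 48 was 0.02 with a 95% interval of -0.16 to 0.19. Its residual SD as moderated by limma, 0.10, lay at the 1.71 percentile of all probe sets, the lowest of the 9 member probe sets tested.

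The second ZEB1 probe set, 210875_s_at, read 342.2, 360.6 and 351.5 at t = 8, above all of 329, 230 and 289.9 at t = 0, and the difference of 0.32 (95% interval 0.08 to 0.56) did not pass (limma adjusted p = 0.325). At t = 48 the induced arrays read 279.2, 291 and 300.7, and the control arrays 308.3, 315.1 and 329.4, without overlap, and the difference of -0.13 (95% interval -0.37 to 0.11) did not pass either (limma adjusted p = 0.547). The third, 212758_s_at, ranged from 235.4 to 348.1 over the arrays, and the fourth, 239952_at, from 17.1 to 45.9. Their differences at t = 48 against control were 0.05 (95% interval -0.27 to 0.37) and 0.11 (95% interval -0.37 to 0.59).

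ZEB2, which is needed for neural crest formation in mouse embryos and is mutated in Mowat-Wilson syndrome, passed nowhere. Its probe set 203603_s_at read 74.7, 38.2 and 56.8 at t = 0, then 53.6, 65.7 and 94.9 at t = 8 and 115.3, 79.6 and 93.6 at t = 24 in induced cells. At t = 48 the induced arrays read 63.6, 66.6 and 87, and the control arrays 48.5, 91.5 and 76.5. The t = 24 arrays all lay above those of t = 0, with a difference of 0.74 (95% interval 0.15 to 1.33, limma adjusted p = 0.139), whereas at t = 48 induced and control cells overlapped (0.03, 95% interval -0.56 to 0.62). On the second tested probe set, 228333_at, the same 2 differences were 0.25 (95% interval -0.17 to 0.68) and 0.23 (95% interval -0.20 to 0.66). The other 3 probe sets read between 0.7 and 21.3, and reached the array median on at most 1 array.

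PRRX1, a core regulator of the mesenchymal state of neuroblastoma cells, was dim on all 3 of its probe sets. The brightest, 205991_s_at, read between 5.8 and 25.2 and reached the array median on 2 arrays, and 226695_at read between 0.7 and 12.2. The dimmest, 238852_at, read 0.1, 0.2 and 0.3 at t = 0, then 2.6, 0.8 and 2.9 at t = 8, 2.8, 5.2 and 3.5 at t = 24 and 2.3, 0.5 and 1.6 at t = 48 under induction, while the t = 48 control read 0.5, 0.2 and 1.2. These values lie far under the array medians. With the filter on low signals removed, this probe set passed at t = 24 against t = 0 (0.74, limma adjusted p = 0.0291), and no other dim probe set of a member passed in any comparison.

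**Figure D2:**
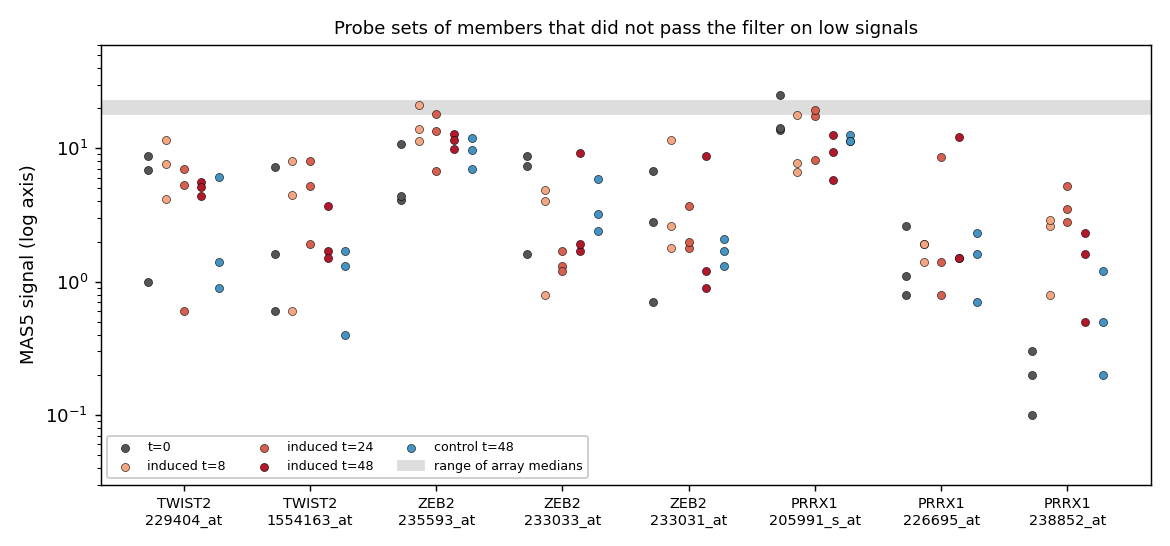
Signals of the 8 member probe sets that did not pass the filter, on a log axis (MAS5 intensity), with 1 point per array, the groups side by side within each probe set, and the range of array medians of 18.1 to 22.6 as a grey band. The probe sets of TWIST2 and 2 of those of PRRX1 stay below the band on all arrays.

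Counted over the 9 tested probe sets, groups did not overlap for 3 between induced and control cells at t = 48, beside 28.9% of all probe sets. Against t = 0 the counts were 2 at t = 8 (13.3% of all), 3 at t = 24 (25.2%), 2 at t = 48 under induction (33.2%) and 2 for the control (16.3%). Between t = 24 and t = 8 it was 1 (23.5%) and between t = 48 and t = 24 it was 3 (17%). No member passed between t = 24 and t = 8, where 2.38% of all probe sets did, and 0 of the 9 had an unadjusted p under 0.05 in limma. The median log2 difference of the 9 at t = 48 against control was 0.05, and that of all probe sets was 0.01. At t = 24 against t = 0 these medians were 0.21 and 0.01. Probe sets of 1 gene are not independent readings of the family, and the comparisons with t = 0 share its 3 arrays.

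**Figure D3:**
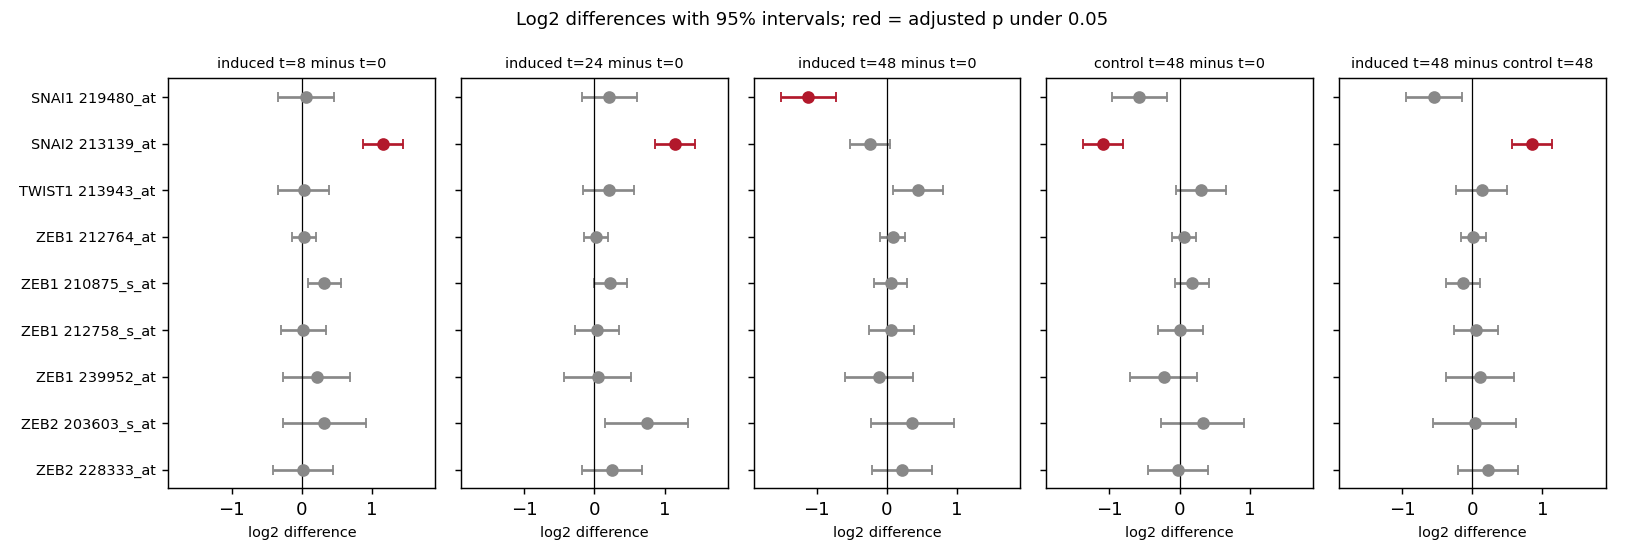
Log2 differences of the 9 tested member probe sets (rows) in 5 comparisons (panels), with 95% intervals from limma; red marks an adjusted p under 0.05. SNAI2 is the red point at t = 8 (1.16), t = 24 (1.15), in control cells (-1.09) and in induced against control cells at t = 48 (0.85), SNAI1 is red at t = 48 against t = 0 (-1.12), and the intervals of the brightest ZEB1 probe set are the narrowest.

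The genes whose log2 signals were most like those of SNAI2 over the 15 arrays were FAM43A (Pearson r 0.96), RHOB (0.96), which encodes a small GTPase, and CEMIP (0.95), which encodes a hyaluronan-degrading protein. The mean signals of FAM43A were 181 for t = 0, 358 for induced t = 8, 344 for induced t = 24, 212 for induced t = 48 and 103 for control t = 48. For RHOB the means in the same order of groups were 246, 560, 550.5, 275 and 170, and for CEMIP they were 32.4, 65.6, 66.6, 30.8 and 15. Each of the 3 was thus highest at t = 8 and t = 24 and lowest in control cells, as SNAI2 was. Most like SNAI1 were SAMD11, ID3 and ID1 (0.93 each), of which the ID genes encode helix-loop-helix proteins without a DNA-binding region that sequester E proteins. ID3 averaged 256.5, 290, 312 and 60.3 along the induced course and 84.4 in control cells. SAMD11 averaged 167.5, 162, 212 and 53.8, and 72.5 in control cells. ID1 averaged 1807.5, 1605, 1332 and 212, and 581 in control cells. These correlations are descriptions over 15 arrays that share 5 groups, chosen as the 3 highest among 12880 genes.

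**Figure D4:**
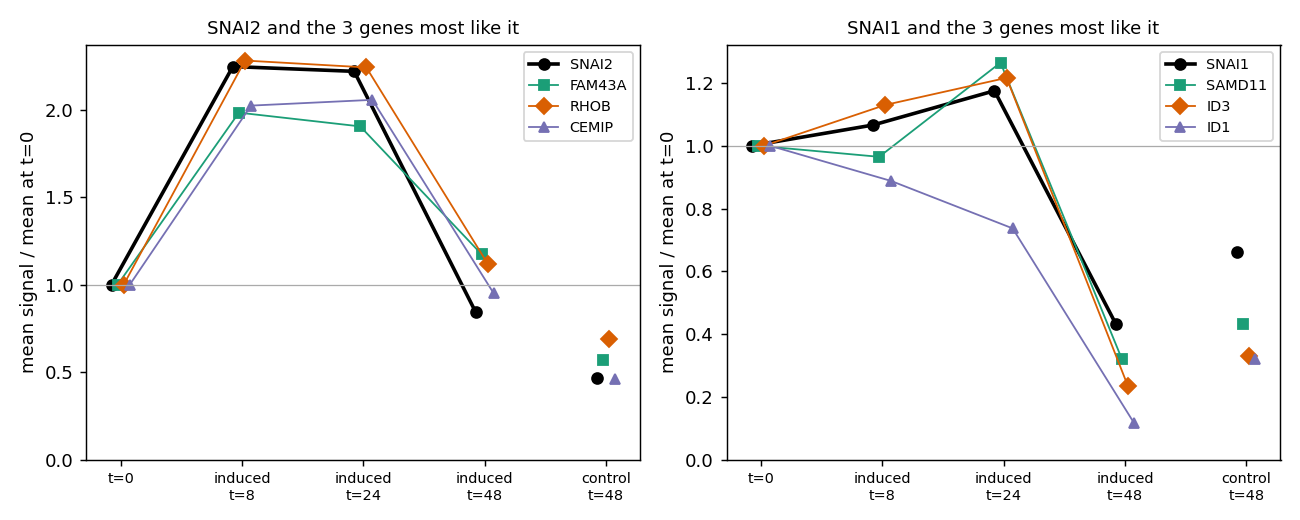
Mean signal of each group divided by the mean at t = 0 (y axes, linear from 0) for SNAI2 and SNAI1 and the 3 genes most like each, with n = 3 arrays per point; lines join the induced time course and single points show control cells at t = 48. SNAI2, FAM43A, RHOB and CEMIP peak at t = 8 and t = 24, whereas SNAI1, SAMD11, ID3 and ID1 are lowest at t = 48 in induced cells.

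Around the members, lists of related genes were described on the brightest tested probe set of each gene. Between induced and control cells at t = 48, 4.01% of all 12880 genes passed as higher and 2.26% as lower, and their median difference was -0.01. Among relatives of the members, 5 of 10 genes were tested, and HAND1, a bHLH factor of the Twist family that acts in heart and sympathetic precursors, passed as the only one (0.49, limma adjusted p = 0.0129), higher in induced cells. Its means were 1204 ± 146 for t = 0, 2162 ± 14.7 for induced t = 8, 2033 ± 117 for induced t = 24, 1585 ± 57.3 for induced t = 48 and 1130 ± 79.1 for control t = 48 (SD, n = 3 each). The HAND1 call against control was lost without induced replicate 3 (limma adjusted p = 0.0552) or control replicate 3 (0.0568), whereas those at t = 8 (0.85, 0.000977) and t = 24 (0.76, 0.00054) against t = 0 held without any 1 array. With a fit of the compared groups alone, none of the 3 HAND1 calls passed (limma adjusted p = 0.0634, 0.0926 and 0.0507).

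Of 13 other factors known to induce EMT, 5 were tested, and SOX9, which acts with SNAI2 in the neural crest of chick embryos, was the only one to pass between induced and control cells at t = 48. Its means were 200.5 ± 5.83 for t = 0, 343 ± 25.9 for induced t = 8, 480 ± 36.9 for induced t = 24, 232 ± 16.2 for induced t = 48 and 127 ± 10.3 for control t = 48. SOX9 was higher by 0.85 in induced than in control cells at t = 48 (limma adjusted p = 0.00027), and higher than at t = 0 by 0.76 at t = 8 (0.00174) and by 1.24 at t = 24 (1.12e-05). In control cells SOX9 differed from t = 0 by -0.65 (limma adjusted p = 0.0134), a call that was lost without any 1 of 5 of the 6 arrays compared, the exception being control replicate 2 (0.0503 to 0.0916). With only the compared groups fitted, this call and that at t = 8 did not pass (limma adjusted p = 0.221 and 0.083).

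Mesenchymal genes, the products that EMT factors are known to raise, were tested for 21 of 28 listed, and 7 were higher and 0 lower with induction than in the t = 48 control, with a median difference of 0.32. Without any 1 array of these groups, 5 to 6 were higher and 0 lower. LUM, which encodes the matrix proteoglycan lumican, had means of 67.8 ± 14.2 in induced and 7.43 ± 2.25 in control cells (limma adjusted p = 2.22e-05). The control mean lies under all array medians, so LUM passed the filter through induced arrays, and the size of its difference rests on the offset, with 2.53 at 5.16, 3.04 at 1 and 1.83 at 16. SPOCK1, which encodes a secreted proteoglycan, had 607 ± 53.9 and 129.5 ± 6.71 (2.18, 1.12e-07). CDH11, the cadherin of mesenchymal cells, had 287 ± 13.2 and 81.3 ± 2.75 (1.76, 2.39e-07), and 2 of its 3 other probe sets also passed. COL3A1, a fibrillar collagen gene, had 54.8 ± 3.54 and 23.7 ± 3.35 (1.06, 0.0163). The COL3A1 call was lost without induced replicate 2 (limma adjusted p = 0.0582) or 3 (0.0616) or control replicate 1 (0.0697), and neither of its other probe sets passed.

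In time, 2 mesenchymal genes were higher and 0 lower at t = 8 than at t = 0, beside 0.784% and 0.683% of all genes, and 8 were higher and 0 lower at t = 24, beside 4.62% and 3.32%. CDH11 was higher already at t = 8 (1.26, limma adjusted p = 2.99e-05), with means of 205 ± 21.8 at t = 8 and 82.1 ± 0.681 at t = 0, although 0 of its 3 other probe sets passed there and the adjusted p was 0.0513 when only these 2 groups were fitted. LUM passed at t = 24 (limma adjusted p = 1.81e-06) with 160 ± 27.6, against 9.73 ± 3.57 at t = 0, again under all array medians, and the difference ran between 2.77 and 3.94 with the offset. The second call at t = 8 was COL1A1 (0.72, limma adjusted p = 0.0383), lost without any 1 of 5 of the 6 arrays, the exception being t = 0 replicate 1 (0.0606 to 0.147). At t = 48 against t = 0, 6 were higher and 2 lower in induced cells, beside 7.97% and 5.79% of all genes. The lower pair, named after their values were seen, were VIM, which encodes the intermediate filament vimentin (-0.45), and SPARC, a matrix glycoprotein gene (-0.53). The VIM call was lost without t = 0 replicate 2 or 3 or induced replicate 2 or 3 (limma adjusted p 0.0576 to 0.122). In control cells 1 was higher than at t = 0, SPOCK1 (0.56, limma adjusted p = 0.0307), lost without any 1 of the 6 arrays (0.0602 to 0.133), beside 0.256% of all genes.

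Fibroblasts express many of the mesenchymal genes, and 8 of the 9 fibroblast markers are also on the mesenchymal list, so their sum is no separate reading. The sum lay between 2093.3 and 2145 on the induced arrays at t = 48 and between 1563.6 and 1660.3 on the control arrays, and was 1250.2 to 1409.3 at t = 0, 1677.9 to 1880.9 at t = 8 and 2520.4 to 2589.9 at t = 24. Of the 8 markers tested, 2 were higher and 0 lower with induction than in the t = 48 control. The part of other cells in these differences was not tested, and more cells of a type cannot be told apart from more RNA per cell in bulk samples. The 5 Schwann cell markers summed to 11.6 to 40.3, with S100B and SOX10 never at the array median. The 6 markers of blood and endothelium summed to 45.8 to 90.2, with PTPRC, CD14, CDH5 and VWF never at it. The other 2, PECAM1 and KDR, were tested, and 1 of them was higher in induced cells at t = 24 than at t = 0, beside 4.62% of all genes. Of 11 markers of adrenergic neuroblastoma lines such as IMR32, 9 were analysed here and 8 passed the filter, while TH stayed below the array median on all arrays. The sum of the 9 was 10423.5 to 11243.5 at t = 0. In induced cells it was 9454.7 to 10134.3 at t = 8, 10749.1 to 11224.6 at t = 24 and 10290.4 to 11508.2 at t = 48. In control cells it was 10701.5 to 11160.2. Between induced and control cells at t = 48, 2 of the 8 were higher and 1 lower, beside 4.01% and 2.26% of all genes.

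Epithelial genes and their regulators, the usual targets of repression by EMT factors, were tested for 12 of 27 listed. CDH1 itself was not among them: its 2 probe sets read between 0.3 and 8.7 and never reached the array median, so a further fall could not be detected. Between induced and control cells at t = 48, 1 of the 12 was higher and 0 lower. OCLN, which encodes the tight-junction protein occludin and whose window with 2 E-boxes is printed with those of ZEB1 and ZEB2, had means of 154 ± 15.8 in induced and 107 ± 12.4 in control cells (0.51, limma adjusted p = 0.0234). That call was lost without induced replicate 2 (limma adjusted p = 0.0855) or 3 (0.0887), or control replicate 1 (0.0935) or 2 (0.088), and 1 of its 3 other probe sets passed. At t = 48 against t = 0, 4 were higher and 0 lower in induced cells, beside 7.97% and 5.79% of all genes. They were OCLN (0.66, limma adjusted p = 0.00323), JUP, which encodes plakoglobin (0.81, 0.00491), the junction scaffold gene PATJ (0.98, 0.0261) and the transcription factor gene GRHL1 (0.66, 0.00843). The PATJ call was lost without t = 0 replicate 1 or 2 or induced replicate 2 or 3 (0.0551 to 0.0977), and the other probe set of GRHL1 passed in the opposite direction (-0.91). In control cells 1 was higher and 0 lower than at t = 0, beside 0.256% and 0.202% of all genes. It was again GRHL1 (0.77), so its rise was not particular to induced cells. That call was lost without any 1 of 5 arrays (limma adjusted p 0.107 to 0.187).

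Corepressors and protein partners of the factors were tested for 19 of 20 listed, and 0 were higher and 4 lower with induction than in the t = 48 control, with a median of -0.15. LMO4, a LIM-domain protein that binds Snail proteins in neural crest and neuroblastoma cells, had means of 200 ± 44.1 in induced and 1026 ± 21.4 in control cells, and fell by 2.35 on the log2 scale (limma adjusted p = 2.11e-06). It was already lower at t = 8 than at t = 0 (-1.75, limma adjusted p = 0.000112), with means of 330 ± 11.9 and 1123 ± 67.2. ID1 had 212 ± 44.6 in induced and 581 ± 100 in control cells at t = 48 (-1.44, limma adjusted p = 0.0011). The other two were ID4 (-0.68, limma adjusted p = 0.0454), lost without any 1 of the 6 arrays (0.0636 to 0.151), and the histone methyltransferase gene SUV39H1 (-0.60, 0.0173), lost without induced replicate 2 or 3 or control replicate 1 or 3 (0.0545 to 0.0763). At t = 48 against t = 0, 0 were higher and 6 lower in induced cells (7.97% and 5.79% of all genes), led by ID1 (-3.08, limma adjusted p = 1.79e-06), LMO4 (-2.48, 5.91e-07), ID3 (-2.01, 6.02e-06) and ID4 (-1.21, 0.00112). In control cells 2 were lower than at t = 0, ID1 (-1.64, 0.00522) and ID3 (-1.56, 0.00131), beside 0.202% of all genes, and neither passed when only these 2 groups were fitted (limma adjusted p = 0.136 each).

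TGF-beta signalling, a main inducer of SNAI1 and SNAI2, and the regulators of Snail protein stability were tested for 18 of 19 listed genes. Between induced and control cells at t = 48, 0 were higher and 1 lower, the ligand gene TGFB2, with means of 98.9 ± 8.58 in induced and 180 ± 14.7 in control cells (-0.83, limma adjusted p = 0.00233). All 3 of its other probe sets passed in the same direction. TGFB2 was lower than at t = 0 at t = 8 (-0.73, limma adjusted p = 0.0142), a call lost without t = 0 replicate 1 or 2 or t = 8 replicate 1 or 3 (0.0524 to 0.0718), and at t = 24 (-0.82, 0.00223). With only the compared groups fitted, neither of these calls passed (limma adjusted p = 0.204 and 0.0719). Against t = 0, 0 of the list were higher and 1 lower at t = 8, beside 0.784% and 0.683% of all genes. At t = 24, 1 was higher and 1 lower (4.62% and 3.32%), and in induced cells at t = 48 also 1 and 1 (7.97% and 5.79%). The list median at t = 48 against control was 0.10.

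**Figure D5:**
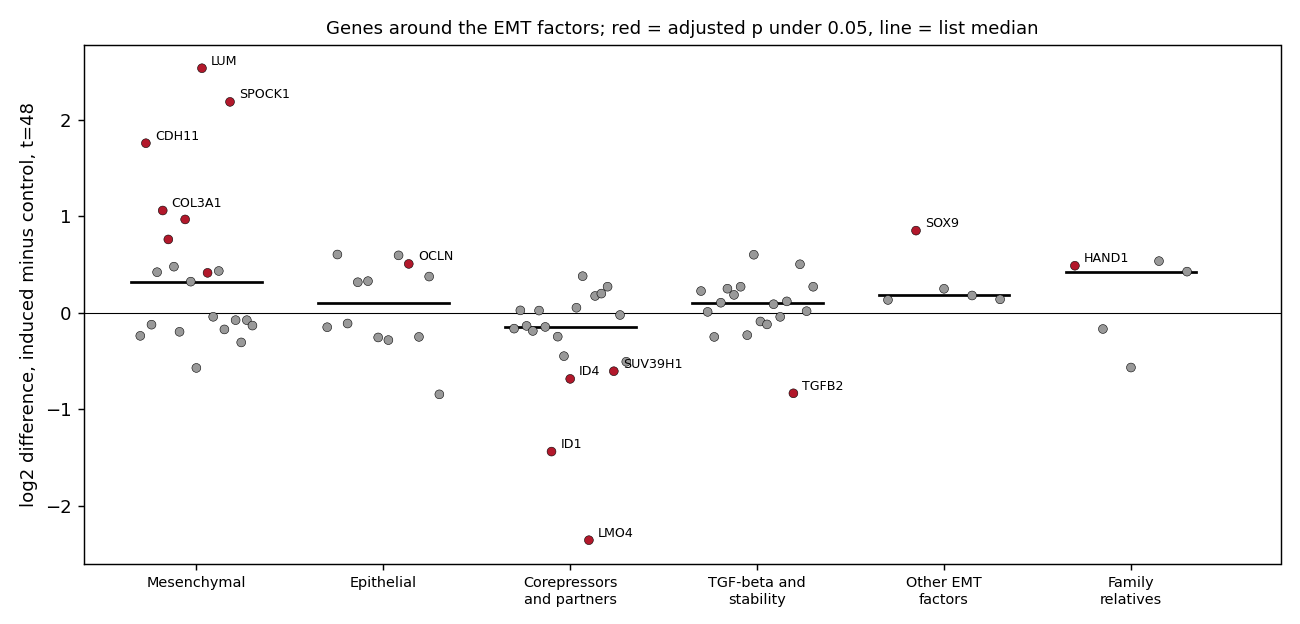
Log2 difference of induced minus control cells at t = 48 for each tested gene of 6 lists (1 point per gene, brightest probe set; red marks a limma adjusted p under 0.05, the short line the list median, and gene names the largest passing changes). Mesenchymal genes hold 7 red points, all above 0, and corepressors and partners hold 4, all below 0.

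MSX1, the introduced gene, was measured on the same arrays as a check of the labels. On probe set 205932_s_at its means were 111 ± 13.6 for t = 0, 161 ± 22.1 for induced t = 8, 165 ± 20.7 for induced t = 24, 83.2 ± 14.7 for induced t = 48 and 50.7 ± 4.52 for control t = 48, so its groups had the same order as those of SNAI2 apart from t = 8 and t = 24. Against t = 0, MSX1 on this probe set differed by 0.51 at t = 8, which did not pass (limma adjusted p = 0.192). The difference at t = 24 was 0.55 (limma adjusted p = 0.0491), lost without any 1 of 5 of the 6 arrays (0.0733 to 0.165). In control cells MSX1 was lower at t = 48 than at t = 0 (-1.05, limma adjusted p = 0.0116), lost without any 1 of 4 arrays (0.0551 to 0.0611). MSX1 was higher in induced than in control cells at t = 48 (0.65, limma adjusted p = 0.0278), a call lost without any 1 of 5 of the 6 arrays, the exception being induced replicate 2 (0.0501 to 0.105). A second probe set gave -0.42 there and did not pass (limma adjusted p = 0.45). That probe set was lower in induced cells at t = 48 than at t = 0, with means of 13.2 and 30.4 (-0.99, limma adjusted p = 0.0468), which goes against the induced label. It is not known here if the introduced gene contains the sequence that these probe sets match. The bioC hybridisation control was weak on induced t = 24 replicate 1 (94.5) and induced t = 48 replicate 3 (110.05), against 326.1 to 448.7 on the other arrays, and leaving out both changed no count of member probe sets that passed.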

How the data were processed

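Per the submitters' processing notes, the authors made the deposited intensities with MAS5 in GCOS; versions and settings are not given in the sources used here. The deposited values are linear. Trimmed by 2% at both ends, all arrays averaged 100.01, which shows scaling by 1 factor per array and leaves differences between arrays among low signals in place. Symbols came from the platform annotation, which gave 1 symbol for 41091 probe sets and several for 1801; 0 of those with several named a member. After 62 array controls were left out, log2(signal + 5.16) was taken, the offset being the mean lower quartile of the arrays, and probe sets at or above the array median on at least 3 of 15 arrays were kept. The 30676 kept probe sets were fitted in limma (version 3.58.1, R version 4.3.3; lmFit, eBayes, 5 group means, two-sided, Benjamini-Hochberg over all kept). All probe sets entered, because the members are probe sets; related genes used their brightest kept probe set, with the same adjusted p. The threshold was 0.05.

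The members and all gene lists were chosen with earlier results of these data known, so no count over a list is independent support. Named were every member probe set, MSX1, up to 4 passing genes with the largest change of each related list described, and the 3 genes most like each member that passed the F-test. Passing genes of the cell type marker lists were counted but not named by this rule. A list of mesenchymal-state neuroblastoma regulators, with 11 of 20 tested, was not described by gene. In it 1 was higher and 1 lower with induction than in the t = 48 control, beside 4.01% and 2.26% of all genes. At t = 48 against t = 0, 3 were higher and 1 lower in induced cells, beside 7.97% and 5.79%. Same-numbered replicates did not deviate together (30 pairs, correlations -0.33 to 0.19, 2 over 0.1), so numbers were not used to pair arrays. The 60 pairs with different numbers had correlations of -0.25 to 0.44. The highest was that of induced t = 24 replicate 1 with induced t = 48 replicate 3, the 2 arrays with weak hybridisation controls. Alternatives covered the offset, scaling, filter, probe set per gene, variance model, groups fitted, replicate block, threshold and left-out arrays.

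In simulated data for induced against control cells at t = 48 (30676 probe sets, 200 changed), 55% of 2-fold and 12% of 1.41-fold changes were called, and 6.94% of calls were unchanged probe sets, so a probe set that did not pass may have changed. In the data 1574 probe sets passed in this comparison. The share called depends on how many probe sets change, so the simulated rates may differ from those of the data. The number of arrays limits the precision. Figures were drawn with matplotlib 3.10.9.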

Additional observations from a re-analysis of the deposited data

How the results depend on the processing

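Counts of member probe sets that passed moved in 5 cases. Fitting only the compared groups gave 0 in place of 1 for induced against control cells at t = 48, for t = 8 against t = 0 and for control cells against t = 0, a fit with fewer residual degrees of freedom. Removing the filter gave 2 in place of 1 at t = 24 against t = 0, where 238852_at of PRRX1 was added, and limma with trend and robust variances gave 2 in place of 1 at t = 48 against t = 0, where TWIST1 was added. Without any 1 array, the counts were 1 for each comparison with t = 0 and for induced against control cells at t = 48, 0 for t = 24 against t = 8, and 2 for t = 48 against t = 24. The log2 difference of SNAI2 against control lay between 0.74 and 0.99 in those fits, and that of SNAI1 between -0.70 and -0.43. With the replicate number as a block, the count at t = 48 against control was 1, and the block changed no count of members, although numbers do not pair the arrays. Of the 25 member differences run under each setting, 6 changed sign in at least 1, none of which had passed. ZEB1 212764_at against control at t = 48 was -0.021 with arrays centred on the median and -0.017 to 0.058 without any 1 array. ZEB1 212758_s_at was -0.0053 without the 2 arrays with weak hybridisation controls and -0.023 to 0.14 without any 1 array, and 239952_at was -0.19 to 0.36. ZEB2 203603_s_at was -0.0039 with centred arrays, -0.014 with quantile normalization, -0.10 without the 2 weak arrays and -0.21 to 0.22 without any 1. SNAI1 at t = 8 against t = 0 was -0.13 to 0.23, and SNAI2 at t = 24 against t = 8 was 0.052 with quantile normalization and -0.081 to 0.056 without any 1 array. Of 36 calls of related genes given in the text, 18 did not pass in a fit of the compared groups alone (limma adjusted p 0.0507 to 0.246), 10 were lost without the filter, 8 with centred arrays, 5 without the 2 weak arrays, 3 with the block and 1 with trend and robust variances. Leaving out 1 array lost 11 of them in at least 1 such fit, and a threshold of 0.01 lost 12. The call of GRHL1 in control cells is not among these 36. With the filter on 12 of 15 arrays, 32 were tested and 0 of these lost. Other scalings moved the median of all probe sets by less than 0.1 on the log2 scale. Dim probe sets near or under the array medians carry the least information, which covers TWIST2, PRRX1, most of ZEB2 and CDH1.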
